A study of Mus musculus with 20 samples.

Results

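The 37 genes described here encode proteins that copy DNA in S phase or that build and run the mitotic spindle, and their RNA was followed in primary fibroblasts grown from mouse embryos (MEFs) and exposed to inflammatory agents. They were chosen by name, 18 for S phase and 19 for G2, mitosis and general cycling, with the requirement of a level of 1 CPM (counts scaled to library size) or more in 2 or more libraries, which all 37 of 37 met out of 14023 genes that did so among 45706 in the table. The fibroblasts came from C57BL/6 embryos and all of them lacked c-Rel, an NF-kB subunit. Cells called the knock-in here also carried an allele of the NF-kB subunit RelA that the labels write as RelA-TA-KI (full genotype crel-/-RelA-TA-KI), and those without it are called crel-/-. Wild-type cells were not analysed here, so every comparison is between cells without c-Rel. Cells near confluence were held overnight in 0.5% serum and then given interleukin 1 beta (IL-1b, 10 ng/ml), tumour necrosis factor (TNF, 10 ng/ml) or bacterial lipopolysaccharide (LPS, 100 ng/ml) for 0.5, 1 or 3 h, or nothing (0 h). There was 1 library for each genotype and condition, 20 in all, so the 2 genotypes stood in for replicates when agents or times were compared, and 10 matched pairs of libraries were used when genotypes were compared. The labels do not state separate cultures, so the p-values reflect how these libraries scatter, which may be technical scatter.

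A cell commits to division in G1, when cyclin D and cyclin E kinases inactivate the Rb family and free E2F transcription factors to switch on genes for nucleotide supply, the MCM helicase and the replication fork. The helicase is a ring of the subunits Mcm2 to Mcm7, loaded on DNA by Cdc6 and Cdt1 and activated with the GINS complex, and Pcna is the sliding clamp of the polymerases. Genes for the spindle, the kinetochore and the mitotic kinases come up later, through the B-MYB, MuvB and FOXM1 factors, while p21 (Cdkn1a) and other kinase inhibitors hold both waves down. Low serum is commonly used to lower the share of fibroblasts that divide.

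Libraries held between 9248151 and 12574135 counts. The scaling factor computed from the bulk of genes (TMM) took values of 0.7225 and 0.732 for LPS at 3 h and at least 0.979 for the other 18 libraries, so the LPS 3 h libraries stood apart in the make-up of their RNA. Fibroblast markers were all detected, at a summed 56920 to 88000 CPM, and macrophage markers were also present at 2731 to 5670 CPM, with none of the 15 at 0 in any library. Neural and Schwann cell markers summed to between 14.55 and 103.4 CPM. Rel RNA, the gene for c-Rel, was detected in all libraries, at 16.2 to 62.1 CPM without and 16.5 to 34.9 CPM with the RelA allele, which checks neither label because no library with intact c-Rel was compared.

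In unstimulated cells both classes were readily measured. Per kilobase of gene length, Rrm1, the large subunit of ribonucleotide reductase, stood highest of the 37 at 36.2 CPM per kb in crel-/- and 33.8 in knock-in cells. Mcm6 followed at 23.6 and 18.5 CPM per kb, and the licensing factor Cdc6 stood lowest at 1.65 and 0.991. Among the mitosis genes the range at 0 h ran from the kinetochore gene Cenpf (2.66 and 2.26 CPM per kb) to cyclin B2, Ccnb2 (20.9 and 16.1). The map of all members by library shows that the lowest values of most genes fell in the LPS 3 h libraries and that 4 genes went the other way there.

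**Figure D1:**
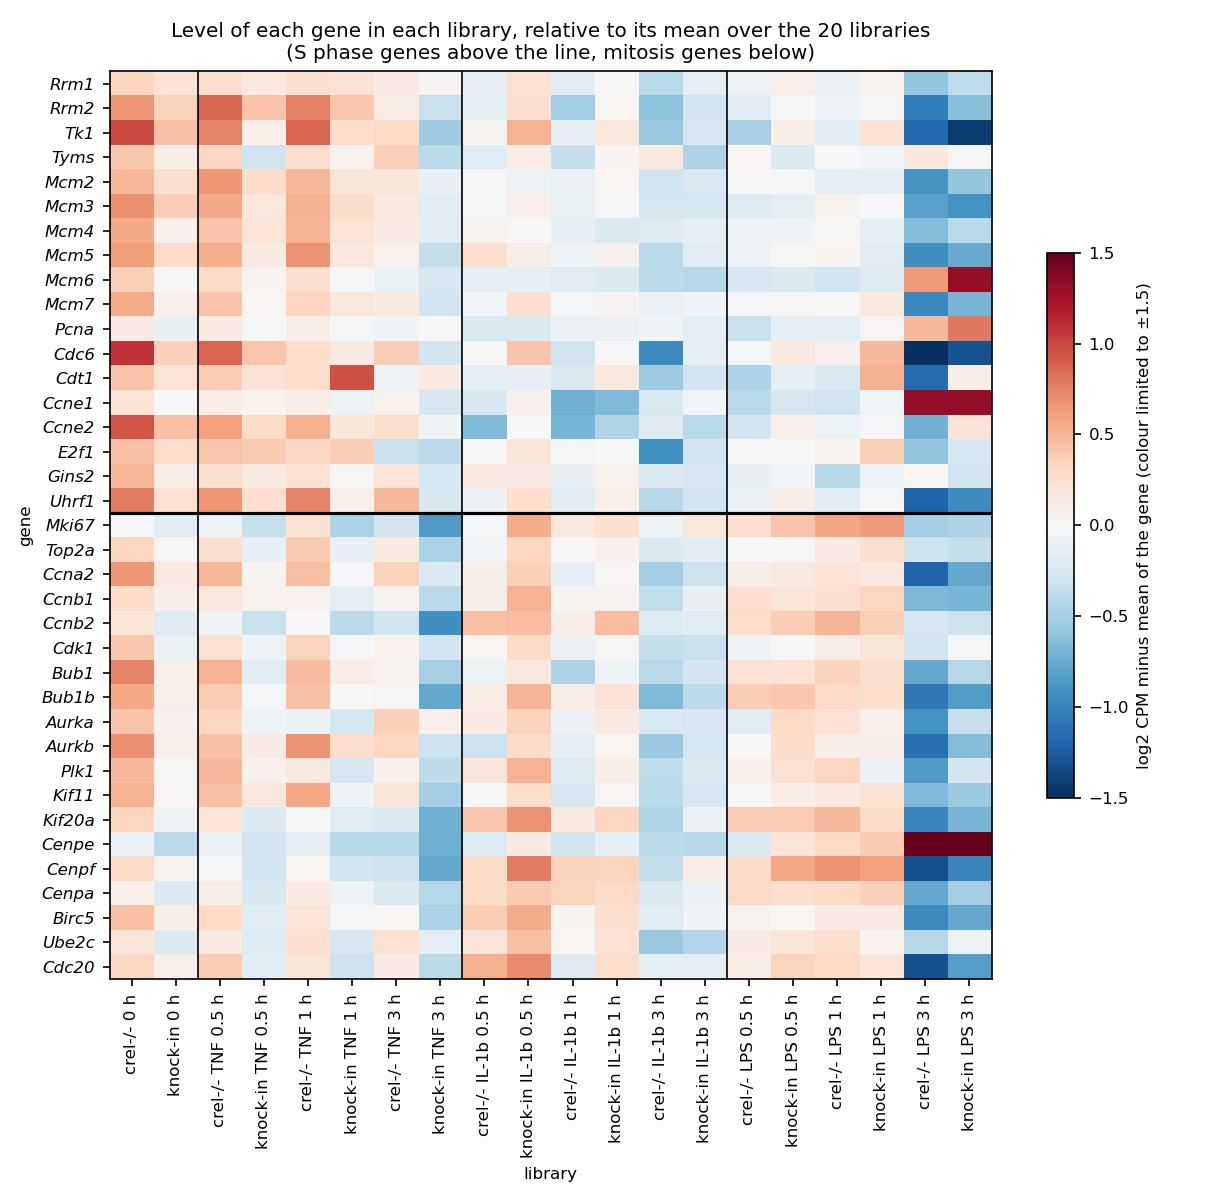
Level of each of the 37 genes (rows) in each of the 20 libraries (columns), as log2 CPM minus the mean of that gene over all libraries, with S phase genes above the thick line and mitosis genes below. In both LPS 3 h columns most genes are below their mean, whereas Ccne1, Mcm6, Pcna and Cenpe are above it.

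LPS for 3 h lowered 14 of the 18 S phase genes and 14 of the 19 mitosis genes relative to 0 h, and raised 3 S phase genes (Ccne1, Mcm6 and Pcna) and 1 mitosis gene (Cenpe). The remaining 5 (Tyms, Cdk1, Mki67, Ccnb2 and Ube2c) did not pass the test. The test was edgeR's quasi-likelihood test with Benjamini-Hochberg adjustment at 0.05 over all genes. The response to LPS at 3 h was broad, and 57.5% of all genes tested were called, 29.2% higher and 28.3% lower, so being called at all is not particular to these genes. The median log2 difference was -0.87 for S phase genes, -0.89 for mitosis genes and -0.01 for all genes tested. Against the 0 h library of the same genotype, the S phase and mitosis medians were -1.44 and -1.31 in crel-/- and -0.56 and -0.51 in knock-in cells. Each of these values sets 1 library against 1, and the gap between genotypes was not tested. The medians of knock-in minus crel-/- were -0.33 and -0.38 in the 0 h pair and 0.27 and 0.26 in the LPS 3 h pair. In bulk RNA, fewer dividing cells and less of these RNAs per dividing cell cannot be told apart. At 0.5 h of LPS the S phase medians were already -0.62 (crel-/-) and -0.26 (knock-in). Neural and Schwann markers summed to 17.13 and 25.94 CPM at LPS 3 h and to 42.5 and 103.4 CPM at 0 h. A property of how these sets of libraries were made therefore cannot be told apart from the effect of LPS against 0 h. Scaling by library totals alone, which moves the median of all genes to -0.62, called 15 S phase genes lower and 1 higher, and 18 mitosis genes lower and 1 higher. Without the crel-/- LPS 3 h library, the mitosis genes called dropped to 9, of which 1 was higher.

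The lowest estimates of the 37 were those of Cdc6 and Tk1. Cdc6, which loads the MCM ring on origins, fell from 8.63 and 5.18 CPM at 0 h (crel-/- and knock-in) to 1.16 and 1.5 CPM, a log2 difference of -2.36 (SE 0.42, adjusted p = 0.000309 by edgeR). Thymidine kinase, Tk1, fell from 16.6 and 11.4 CPM to 3.63 and 3 CPM (-2.08, SE 0.41, adjusted p = 0.000877). For both genes each LPS 3 h value lay below all 18 other libraries.

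Mcm3 had the smallest p among the S phase genes. It stood at 63.7 and 51.3 CPM at 0 h and at 22.5 and 21.2 CPM after 3 h of LPS, with the 16 other libraries between 33 and 58.9 (median 39.1). The 2 LPS values were below every other library, and the fitted difference was -1.39 (SE 0.13, adjusted p = 1.22e-06 by edgeR), or 2.63-fold lower. Mcm5 went from 46.7 and 36.9 CPM to 15.8 and 17.8 CPM (-1.30, SE 0.18), and Mcm2 from 57.2 and 47.8 CPM to 21.8 and 26.9 CPM (-1.10, SE 0.15). Neither overlapped the remaining libraries, whose lowest values were 22.8 CPM for Mcm5 and 33 CPM for Mcm2.

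Other S phase genes called lower ranged from Uhrf1, which keeps DNA methylation in place behind the fork (-1.59, SE 0.30), and the small ribonucleotide reductase subunit Rrm2 (-1.34, SE 0.26) to Rrm1 (-0.75, SE 0.11) and the GINS subunit Gins2 (-0.45, SE 0.18, adjusted p = 0.0453 by edgeR). The transcription factor E2f1 fell by 0.78 on the log2 scale (SE 0.16). Cdt1 and Ccne2 were called lower, but their LPS 3 h libraries differed by genotype, at 5.80 CPM in crel-/- against 14 CPM in knock-in cells for Cdt1 and at 5.80 against 11.3 CPM for Ccne2. With 1 library on each side, that gap has no replicate check.

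Ccne1, cyclin E1, which drives entry into S phase, was at 21.6 and 18.9 CPM at 0 h and reached 46.9 CPM in both LPS 3 h libraries. The 16 other libraries lay between 11.3 and 20.1 CPM, so LPS 3 h stood above all of them, and the difference from 0 h was 1.21 (SE 0.14, adjusted p = 5.16e-06 by edgeR). The other cyclin E gene, Ccne2, moved the opposite way in the same libraries (-0.88, SE 0.30).

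Mcm6 was the single helicase subunit to rise. It went from 110 and 86.1 CPM at 0 h to 134 CPM in crel-/- and 213 CPM in knock-in cells, against 63.8 to 105 CPM (median 75.2) in the 16 other libraries. The difference from 0 h was 0.83 (SE 0.18, adjusted p = 0.002 by edgeR), and both values were above all other libraries. Pcna went from 41.6 and 35.2 CPM to 53.5 and 66.1 CPM, with the 16 others between 30.1 and 41.7 (0.64, SE 0.12, adjusted p = 0.000354). Under scaling by library totals, Ccne1 was still called higher (0.61), while Mcm6 (0.23) and Pcna (0.03) were not called. By library totals, Mcm6 in crel-/- cells was lower at LPS 3 h (922 of 9550464 counts) than at 0 h (1363 of 11071057). Pcna was too (369 against 516 counts in the same libraries). For these 2 genes the separation from all other libraries therefore held only after TMM scaling.

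A share within the MCM ring does not depend on the scaling between libraries. Mcm6 made up between 21.8% and 24.7% of the summed CPM per kb of Mcm2 to Mcm7 in the 18 other libraries, and 48.4% (crel-/-) and 56.7% (knock-in) at LPS 3 h. Within a fixed sum the other shares have to fall when that of Mcm6 rises, and all of them did. That of Mcm3, for example, went from between 13.7% and 16.9% to 10.1% and 6.99%. In absolute terms Mcm6 and Mcm4 lay close together in unstimulated cells (23.6 against 23.2 CPM per kb in crel-/-), but at LPS 3 h Mcm6 was at 28.7 and 45.7 CPM per kb and Mcm4 at 9.98 and 11.8. A share shows unequal change among the 6 subunits only. In the deposited table no other gene overlaps Mcm6, Pcna, Ccne1 or Cenpe, so reads of a neighbour were not counted as theirs by overlap.

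**Figure D2:**
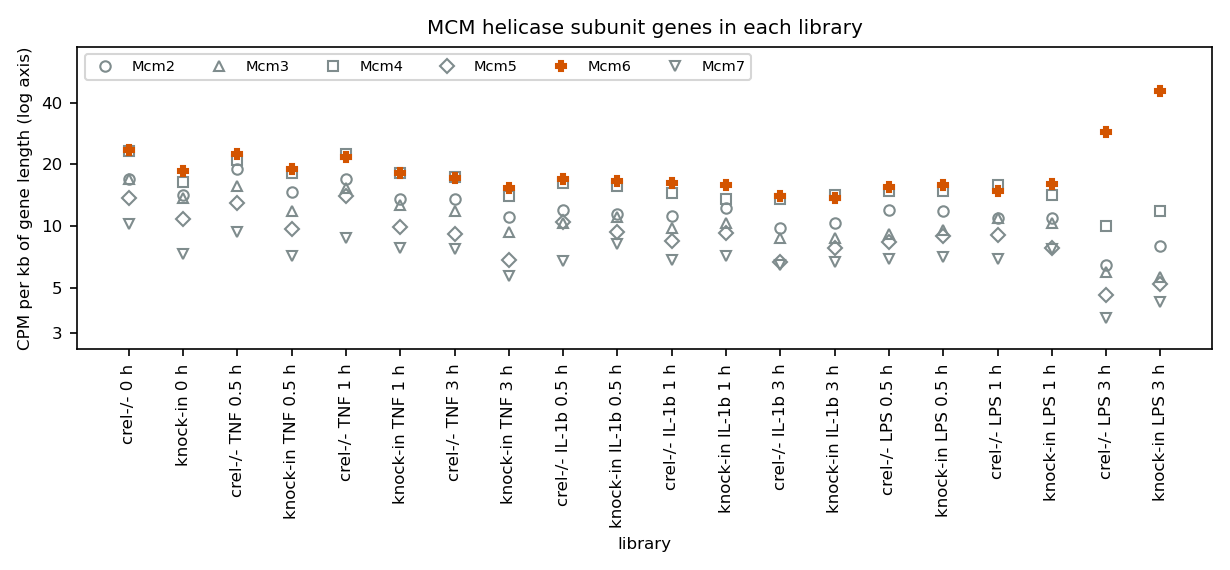
Level of the 6 MCM helicase subunit genes (symbols, Mcm6 in orange) in each library, as CPM per kb of gene length on a log axis. Mcm6 runs beside Mcm4 in the 18 other libraries and separates from all 5 other subunits in the 2 LPS 3 h libraries, at 28.7 and 45.7 CPM per kb.

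On the mitosis side, the genes with the smallest p among those lowered by LPS at 3 h were Birc5, Cenpf and Ccna2. Birc5, survivin, part of the chromosomal passenger complex, went from 21 and 16.2 CPM to 7.83 and 8.89 CPM (-1.14, SE 0.20, adjusted p = 0.000276 by edgeR). Cenpf went from 41 and 34.8 CPM to 13.5 and 16.9 CPM (-1.31, SE 0.24), and cyclin A2, Ccna2, from 82.4 and 57.8 CPM to 22.6 and 30.8 CPM (-1.37, SE 0.25). For these 3 genes both LPS 3 h values lay below all other libraries, the lowest of which were 11 CPM for Birc5, 19.9 CPM for Cenpf and 36.6 CPM for Ccna2. The checkpoint kinase family member Bub1b (-1.29, SE 0.27), the passenger kinase Aurkb (-1.28, SE 0.31) and the anaphase activator Cdc20 (-1.24, SE 0.26) fell by similar amounts, and the weakest called fall was in Top2a, the topoisomerase that untangles sister chromatids (-0.51, SE 0.20, adjusted p = 0.0474 by edgeR). The 4 mitosis genes not called had log2 differences of -0.41 (Mki67, SE 0.25), -0.33 (Cdk1, SE 0.18), -0.29 (Ccnb2, SE 0.19) and -0.22 (Ube2c, SE 0.20).

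Cenpe, a kinesin that carries chromosomes to the spindle equator, was the mitosis gene that rose. It stood at 41.9 and 33.8 CPM at 0 h and at 128 and 140 CPM after 3 h of LPS, a 3.54-fold difference (log2 1.82, SE 0.17, adjusted p = 1.08e-06 by edgeR). The 16 other libraries lay between 26.7 and 58.4 CPM (median 38.3), so none reached the LPS 3 h level, and the highest of them were LPS 1 h in knock-in cells (58.4 CPM) and in crel-/- cells (54.8 CPM). Under scaling by library totals it was still called higher (1.22). Counting over all members, both LPS 3 h libraries lay below all 18 others for 9 S phase and 10 mitosis genes and above them for 3 and 1. Over all genes tested this separation was seen for 15.7% in the lower and 16.3% in the higher direction.

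The promoters of a falling and a rising gene from each class are shown to set the response beside the sequence. They are the 250 bases before the annotated start (RefSeq, GRCm38.p6), 5′ to 3′ on the strand of the gene, with capitals marking any match to an E2F site (TTCCCGC or TTGGCGC), a cell cycle homology region or CHR (TTTGAA), or a CCAAT box (CCAAT), each on either strand.
Mcm5, which fell, chr8:75109259-75109508, + strand: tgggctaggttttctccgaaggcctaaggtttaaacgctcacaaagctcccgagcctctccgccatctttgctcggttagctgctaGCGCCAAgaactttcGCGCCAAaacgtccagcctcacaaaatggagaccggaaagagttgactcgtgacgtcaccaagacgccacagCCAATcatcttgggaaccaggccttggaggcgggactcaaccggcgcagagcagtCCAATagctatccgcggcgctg
Mcm6, which rose, chr1:128359706-128359955, - strand: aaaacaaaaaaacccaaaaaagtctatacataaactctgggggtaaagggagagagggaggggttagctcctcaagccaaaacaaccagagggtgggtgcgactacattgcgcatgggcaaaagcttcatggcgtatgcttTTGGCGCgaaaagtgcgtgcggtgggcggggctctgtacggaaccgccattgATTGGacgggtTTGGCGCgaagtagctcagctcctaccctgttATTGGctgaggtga
Cdc20, which fell, chr4:118437344-118437593, - strand: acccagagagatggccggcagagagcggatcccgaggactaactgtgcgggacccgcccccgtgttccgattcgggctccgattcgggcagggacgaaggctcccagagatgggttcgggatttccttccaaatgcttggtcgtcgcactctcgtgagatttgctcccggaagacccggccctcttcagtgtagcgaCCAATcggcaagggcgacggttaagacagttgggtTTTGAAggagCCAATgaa
Cenpe, which rose, chr3:135212313-135212562, + strand: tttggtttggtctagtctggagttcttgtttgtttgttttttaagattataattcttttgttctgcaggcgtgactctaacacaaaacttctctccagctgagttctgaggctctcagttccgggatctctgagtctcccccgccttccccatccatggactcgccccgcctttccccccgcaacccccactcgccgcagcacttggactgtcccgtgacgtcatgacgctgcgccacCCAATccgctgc

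The 2 helicase genes that moved in opposite directions both carry a pair of E2F matches and a pair of CCAAT boxes in this stretch. Cdc20 holds a CHR match 18 bases before its start and a pair of CCAAT boxes, and Cenpe holds a CCAAT box and no CHR match. This pair does not stand for the class. Over windows of 300 bases (250 before to 50 after the start), RefSeq promoters were matched for 31 of the 37 members, 15 S phase and 16 mitosis genes. A member counted when any of its promoters matched (33 promoters for 31 genes), whereas the percentages given beside are shares of single promoters. An E2F match was found in 8 of 15 S phase and 3 of 16 mitosis genes, against 6.81% of all 32851 promoters. The CHR was found in 1 of 15 and 12 of 16 (17.9% of all promoters), and the CCAAT box in 9 of 15 and 15 of 16 (37.4%). The other matched mitosis genes without a CHR, Birc5, Bub1 and Ccnb1, were all called lower under LPS at 3 h. Mki67, Cdk1, Ccnb2 and Ube2c carry a CHR and were not called. The consensus of NF-kB binding sites, searched by its usual degenerate form on both strands, was found in 1 of 15 (Mcm7) and 1 of 16 (Birc5), against 4.51% of all promoters. Any of these motifs can overlap another, and a match describes the letters only.

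The regulators upstream of these genes were followed through a list of G1 cyclins, kinases and inhibitors and a list of Rb, E2F and MuvB factors. Of 16 G1 genes, 7 rose and 6 fell at LPS 3 h against 0 h, beside 29.2% and 28.3% of all genes tested. Cdkn1a, which encodes p21, went from 214 and 233 CPM to 772 and 677 CPM (log2 1.69, SE 0.12, adjusted p = 9.98e-08 by edgeR). Cdkn2a, the locus of the p16 and ARF inhibitors, went from 17.1 and 21.3 CPM to 49.8 and 51.7 CPM (1.41, SE 0.09). The kinase Cdk6 (1.60, SE 0.16) and cyclin D2, Ccnd2 (0.65, SE 0.08), which push cells out of G1, rose as well, so genes with opposite roles in the cycle were raised together.

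Of 18 Rb, E2F and MuvB factors, 10 fell and 2 rose. E2f7 (-2.13, SE 0.29) and E2f6 (-1.07, SE 0.11), which repress E2F target genes, and the E2F partner Tfdp2 (-0.97, SE 0.15) were among those that fell, while the pocket protein gene Rbl1 (p107) rose (1.26, SE 0.18). The wider replication list lost 31 of 38 genes, led by Rfc1 (-0.77, SE 0.09), the chromatin assembly subunit Chaf1a (-1.77, SE 0.21) and the licensing inhibitor Gmnn (-2.17, SE 0.29), and gained 3. Those 3 were the clamp loader subunit Rfc3 (1.37, SE 0.18), Gins3 (0.88, SE 0.24) and Mcm10 (0.47, SE 0.16). The wider mitosis list lost 33 of the 41 genes tested, led by Cdc25b (-1.63, SE 0.19), and gained 1, Pttg1, which encodes securin, the inhibitor of separase (10.2 and 9.09 CPM at 0 h, 49.3 and 39.2 CPM after LPS, log2 2.19, SE 0.17). The median over these lists was -0.72 and -0.90. After TMM scaling, fibroblast markers were highest in the same libraries, at a summed 86250 and 88000 CPM against at most 76730 elsewhere, with 6 of 11 called higher. The low scaling factors of the LPS 3 h libraries raise such sums, and by library totals alone these sums were not the highest. Macrophage markers (4 of 15 higher, 8 lower) and neural markers (7 of 12 lower) also moved at LPS 3 h. All these list counts stand beside 57.5% of all genes called, 29.2% higher and 28.3% lower. Endothelium markers summed to 76.23 and 61.41 CPM in the LPS 3 h libraries against at most 24.5 CPM in the other 18, with 1 of the 3 tested called higher (Kdr, a growth factor receptor, log2 2.62, SE 0.32). The part of these markers in the differences was not tested.

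Most members differed between 1 h and 3 h of LPS. Relative to LPS at 1 h, 11 S phase genes fell and 3 rose, and 15 mitosis genes fell and 1 rose, against 51.2% of all genes called, 25.9% higher and 25.3% lower (edgeR). The genes that rose were the same 4, Ccne1 (1.49, SE 0.14), Mcm6 (1.27, SE 0.19), Pcna (0.71, SE 0.12) and Cenpe (1.25, SE 0.16). Cenpf (-1.80, SE 0.24), the histone variant gene Cenpa (-0.97, SE 0.14), Mcm3 (-0.88, SE 0.14) and Mcm7 (-0.90, SE 0.20) were among those that fell, and Mki67, not called against 0 h, fell by 1.10 on the log2 scale (SE 0.26) from its LPS 1 h levels of 202 and 209 CPM to 93.6 and 97.1 CPM. The median was -0.59 for S phase and -0.95 for mitosis genes. Without the crel-/- LPS 3 h library, 7 S phase genes were called instead of 14, and without the knock-in LPS 1 h library, 9.

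The same 4 genes also separated LPS from the other agents at 3 h. Against TNF, 10 S phase genes were lower and 3 higher, and 7 mitosis genes lower and 1 higher, with 48.2% of all genes called, 24.3% higher and 24% lower (edgeR). Cenpe differed by 2.17 (SE 0.17), Ccne1 by 1.42 (SE 0.14), Mcm6 by 1.20 (SE 0.18) and Pcna by 0.68 (SE 0.12). The strongest calls in the lower direction were Mcm3 (-0.86, SE 0.14), Rrm1 (-0.57, SE 0.11) and Ccna2 (-1.04, SE 0.25). Neural and Schwann markers summed to 17.13 and 25.94 CPM at LPS 3 h and to 52.5 and 74.86 CPM at TNF 3 h. How these libraries were made thus cannot be told apart from the agent in this comparison. Without the crel-/- LPS 3 h library the calls dropped to 6 S phase genes and 1 mitosis gene, and without the crel-/- TNF 3 h library to 6 and 2.

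Against IL-1b at 3 h, 4 S phase genes (Mcm2, Mcm3, Mcm5 and Mcm7) were lower under LPS and 3 higher, and 5 mitosis genes (Cenpf, Birc5, Cenpa, Cdc20 and Kif20a) were lower and 1 higher, with 47.2% of all genes called, 23.8% higher and 23.4% lower (edgeR). The fall of Mcm3 was -0.60 (SE 0.14) and that of Cenpf -1.05 (SE 0.24), while Cenpe was higher by 2 (SE 0.17) and Ccne1 by 1.46 (SE 0.14). Scaled by library totals, where the median of all genes was -0.44, the split became 10 lower and 3 higher for S phase and 14 lower and 1 higher for mitosis genes. Without the crel-/- LPS 3 h library 4 S phase and 2 mitosis genes were called, and without the knock-in IL-1b 3 h library 2 mitosis genes.

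IL-1b for 3 h lowered 14 of 18 S phase genes and 5 of 19 mitosis genes relative to 0 h and raised none, with 30.7% of all genes called and 13.8% called lower (edgeR). The medians were -0.69 and -0.42, beside 0.01 for all genes tested, and the S phase median was 0.27 below that of mitosis genes on the log2 scale, a gap given without a test. Against the 0 h library of the same genotype, the S phase and mitosis medians were -0.87 and -0.66 in crel-/- and -0.48 and -0.22 in knock-in cells. These values too set 1 library against 1, and the gap between genotypes was not tested. At 0.5 h of IL-1b the S phase median was already -0.54 in crel-/- cells (18 of 18 genes lower). In knock-in cells it was then -0.08 (10 of 18 lower). Mcm3 fell from 63.7 and 51.3 CPM to 33 CPM in both genotypes (-0.79, SE 0.12, adjusted p = 0.000603). E2f1 fell from 33.7 and 29.6 CPM to 13.1 and 20.3 CPM (-0.93, SE 0.15), and Cdc6 had the lowest estimate (-1.28, SE 0.34). Neither Mcm3 nor E2f1 overlapped its 0 h values.

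Mcm6 fell under IL-1b, from 110 and 86.1 CPM to 65.4 and 63.8 CPM (-0.60, SE 0.18, adjusted p = 0.0285 by edgeR), the reverse of its change under LPS. Ccne1 (-0.25, SE 0.14), Pcna (-0.11, SE 0.12) and Cenpe (-0.18, SE 0.17) were not called. The 5 mitosis genes that fell were Ccna2 (-0.83, SE 0.23), Bub1b (-0.86, SE 0.25), Bub1 (-0.78, SE 0.25), Cdk1 (-0.53, SE 0.18) and Aurkb (-0.82, SE 0.28), and Mki67 stood at 0.13 (SE 0.25). These calls rested on few libraries. Without the crel-/- 0 h library or without the crel-/- IL-1b 3 h library, 3 S phase genes and 0 mitosis genes were called, and without the knock-in IL-1b 3 h library 9 and 2. Macrophage markers summed to 2970 and 3656 CPM at IL-1b 3 h against 4208 and 4915 CPM at 0 h (9 of 15 called lower), and neural and Schwann markers to 22.24 and 34.63 against 42.5 and 103.4 CPM (7 of 12 lower). Over all genes tested, 13.8% were called lower in this comparison. The part of these markers in the IL-1b differences was not tested. Both marker sums set all 0 h and TNF libraries apart from all IL-1b libraries. A property of how these libraries were made therefore cannot be told apart from the effect of IL-1b.

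TNF for 3 h lowered 3 S phase genes, E2f1 (-0.73, SE 0.15), Mcm3 (-0.53, SE 0.12) and Mcm5 (-0.61, SE 0.17), and 3 mitosis genes, Ccnb2 (-0.58, SE 0.18), Cenpf (-0.68, SE 0.22) and the kinesin Kif20a (-0.59, SE 0.20), with 34.7% of all genes called and 16% called lower (edgeR). The medians were -0.36 and -0.38, and 36 of the 37 estimates were below 0. E2f1 went from 33.7 and 29.6 CPM to 19.5 and 18.7 CPM, without overlap. Scaling by library totals, which moved the median of all genes to -0.14, raised the calls to 10 S phase and 9 mitosis genes, and without the crel-/- 0 h or the knock-in TNF 3 h library they dropped to 1 and 0. Without the knock-in 0 h library 6 S phase and 5 mitosis genes were called, and without the crel-/- TNF 3 h library 6 mitosis genes. Macrophage markers summed to 5404 and 5670 CPM at TNF 3 h (5 of 15 called higher, beside 18.7% of all genes), and their part was not tested. The 3 comparisons with 0 h share both 0 h libraries. In the direct contrast of IL-1b with TNF at 3 h, 1 of the 37 genes was called, Rrm1 (-0.35, SE 0.11, adjusted p = 0.0373), beside 15.8% of all genes (7.89% higher, 7.93% lower), and it was not called without the crel-/- IL-1b 3 h or the crel-/- TNF 3 h library.

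**Figure D3:**
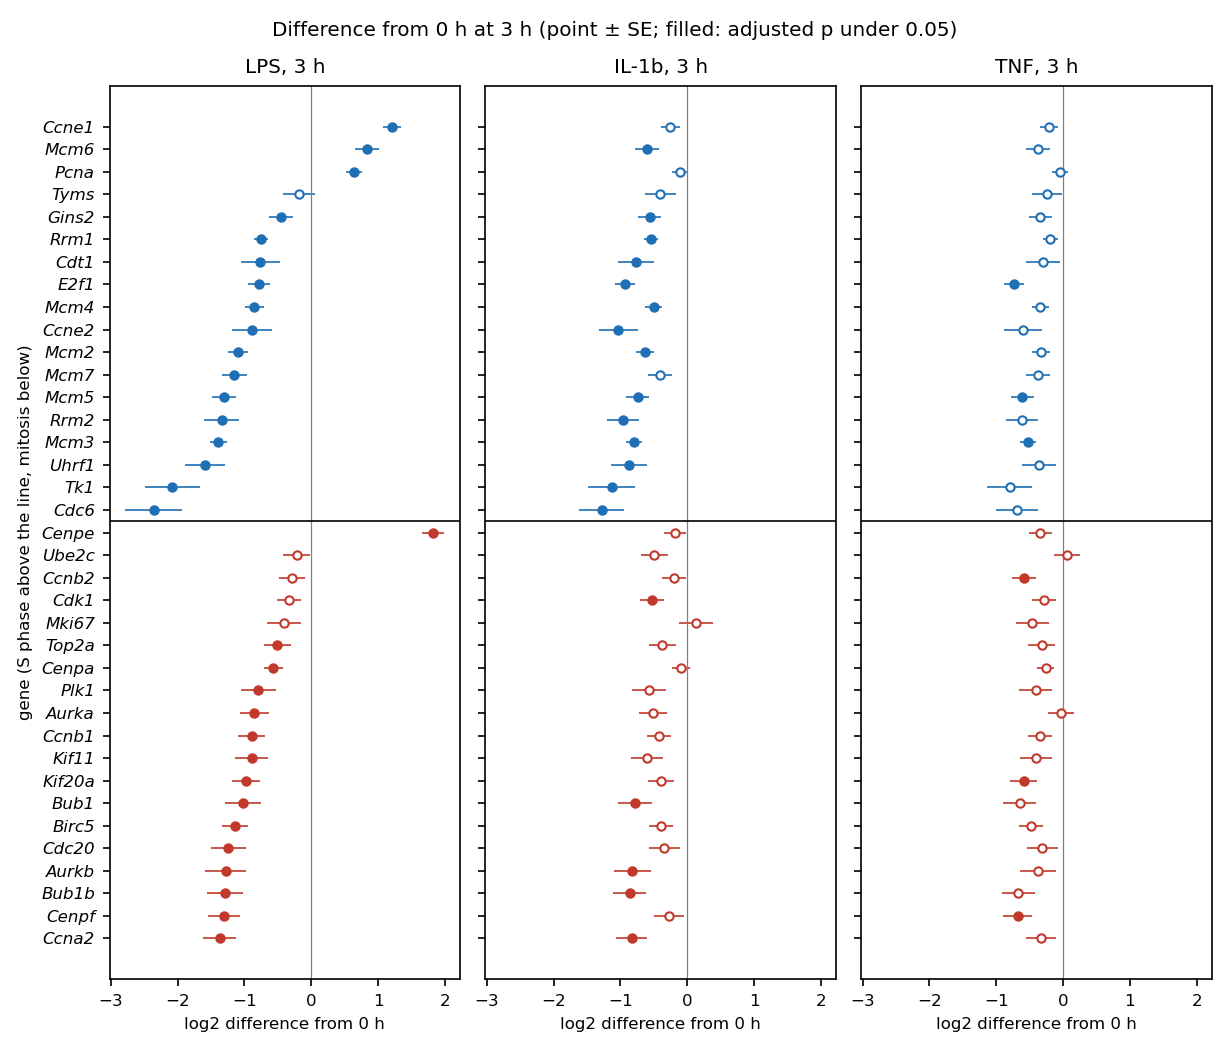
Log2 difference from 0 h after 3 h of LPS, IL-1b or TNF for each gene (points, with SE as bars), S phase genes in blue above the line and mitosis genes in red below, filled where the edgeR adjusted p is under 0.05. Under LPS all but 5 points are filled and Ccne1, Mcm6, Pcna and Cenpe lie right of 0, whereas under IL-1b and TNF no filled point lies right of 0.

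Between 1 h and 3 h the other agents changed few members. Under IL-1b, E2f1 fell (-0.56, SE 0.15), Ccne1 rose (0.57, SE 0.15), and the mitosis genes Cenpa (-0.47, SE 0.13) and Ube2c (-0.63, SE 0.20) fell, with 18.2% of all genes called, 10.6% higher and 7.64% lower (edgeR). Leaving out any 1 of the 4 IL-1b libraries at these times lowered the S phase calls from 2 to 0 or 1. Under TNF, E2f1 (-0.71, SE 0.15), Mcm5 (-0.58, SE 0.17) and Mcm3 (-0.40, SE 0.12) fell and no mitosis gene was called (2 of 19 at an unadjusted p under 0.05), with 22.7% of all genes called and 10.4% called lower. A single S phase gene was called without the crel-/- TNF 1 h or the knock-in TNF 3 h library. E2f1 was thus lower at 3 h than at 1 h under each of the 3 agents.

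Few members were called in the first hour when the 3 agents were averaged. At 0.5 h against 0 h, Mcm3 was the single member called (-0.46, SE 0.10, adjusted p = 0.0159), beside 5.43% of all genes (2.9% higher, 2.53% lower), and it was not called when either 0 h library was left out. At 1 h, Mcm3 (-0.41, SE 0.10), Ccne2 (-0.81, SE 0.22) and Ccne1 (-0.40, SE 0.11) were lower, beside 13.8% of all genes, 7.12% higher and 6.7% lower (edgeR). None was called when crel-/- 0 h was left out, and 1 was called when crel-/- IL-1b 1 h, crel-/- LPS 1 h or knock-in TNF 1 h was. The medians of the S phase genes were -0.27 and -0.33, those of the mitosis genes 0.01 and -0.09. This average covered unlike differences from 0 h of the same genotype, each from 1 library against 1 and without a test. Under IL-1b and LPS the S phase medians were between -0.69 and -0.54 in crel-/- cells, with 18 of 18 genes lower in each library. They were between -0.26 and -0.08 in knock-in cells. The mitosis medians were between -0.41 and -0.17 in crel-/- and between 0.15 and 0.48 in knock-in cells. Under TNF all medians lay between -0.14 and 0.02.

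The balance of the 2 classes differed between sets of libraries. The mean of the relative levels of the S phase genes minus that of the mitosis genes was between 0.19 and 0.35 in the 6 libraries of 0 h and of TNF at 0.5 and 1 h, and between -0.40 and -0.20 in the 8 libraries of IL-1b and LPS at 0.5 and 1 h. The 2 sets did not overlap. They were not among the planned comparisons, so their separation is a description and no test of the agents. Rrm2, Mcm2, Mcm3, Mcm4, Mcm6 and Ccne2, 6 of 18 S phase genes, were lower in every one of the 8 libraries than in any of the 6, and Cenpa, 1 of 19 mitosis genes, was higher. Over all genes tested, 4.83% were fully apart in the lower and 5.26% in the higher direction. Mcm2, for example, lay between 36.7 and 41.4 CPM in the 8 libraries and between 45.9 and 63.9 CPM in the 6, and Cenpa between 31.4 and 34.7 CPM against 22.3 to 28.6 CPM.

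A direct test of IL-1b and LPS against TNF at 0.5 h called Mcm2 (-0.50, SE 0.12) and Mcm3 (-0.45, SE 0.11) lower and Ccnb2 (0.58, SE 0.16) and Cenpa (0.38, SE 0.11) higher, beside 10.4% of all genes, 5.24% higher and 5.13% lower (edgeR). Leaving out the crel-/- TNF 0.5 h library ended all 4 calls, and leaving out any other of the 6 libraries ended at least 1. The summed level of the macrophage markers followed the same division, at 4208 to 5107 CPM in the 6 libraries and 2731 to 3934 CPM in the 8. So did that of neural and Schwann markers, at 37.32 to 103.4 against 14.55 to 32.35 CPM. Single markers can differ from their sum. The part of these markers in the difference was not tested, and a property of how these sets of libraries were made cannot be told apart from the agent.

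**Figure D4:**
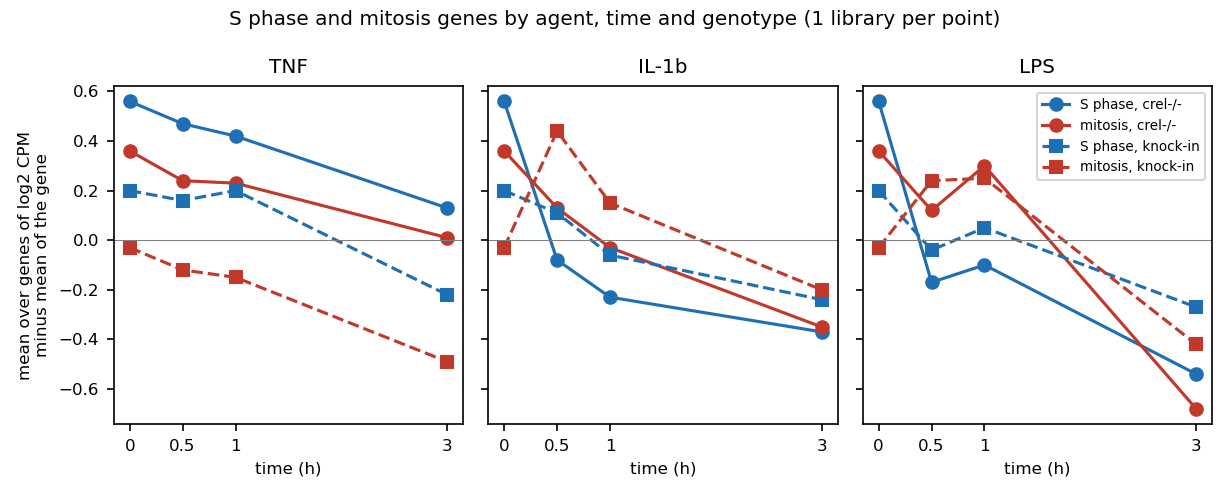
Mean over the S phase genes (blue) and the mitosis genes (red) of log2 CPM minus the mean of each gene, by time (h) for each agent, with crel-/- as circles and knock-in as squares and 1 library per point. The same 0 h libraries start all 3 panels, S phase lies above mitosis throughout the TNF panel, and mitosis lies above S phase at 0.5 and 1 h of IL-1b and LPS.

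The RelA-TA-KI allele was not associated with a called difference in any of the 37 genes over the 10 matched pairs, whereas 15.8% of all genes tested were called, 7.99% higher and 7.81% lower (edgeR). DESeq2 and limma-voom also called 0, and at an unadjusted p under 0.05 edgeR gave 4, DESeq2 2 and limma-voom 5, beside 4038 of all 14023 genes in edgeR. Estimates lay between -0.24 and 0.32. The 4 in edgeR were Cdt1 (0.32, SE 0.12), Mcm4 (-0.14, SE 0.06), Mcm3 (-0.13, SE 0.06) and the thymidylate synthase gene Tyms (-0.24, SE 0.11). Cdt1 was higher in the knock-in in 8 of 10 pairs, at 10.7 to 25.7 CPM (median 14.5) against 5.80 to 17.7 CPM (median 11.5), and the ranges overlapped. Mcm4 was called lower (-0.18) when either LPS 3 h library or both were left out. Whether the genotype difference at 3 h departed from that at 0.5 and 1 h was tested for each gene, and edgeR called 0 of 37, with 0 at an unadjusted p under 0.05 and 0 by DESeq2 and limma-voom, beside 4.81% of all genes (2.6% higher, 2.22% lower). That fit had no term for a genotype difference that varies with the agent, so such variation entered its spread. The lack of calls therefore does not show that the genotype difference stayed the same over time.

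The mean over pairs covered differences of opposite sign. In the pair at 0 h all 18 S phase and all 19 mitosis genes were lower in the knock-in, with medians of -0.33 and -0.38. The TNF pairs were alike, with S phase medians between -0.36 and -0.24 and mitosis medians between -0.51 and -0.35. In the IL-1b pairs the medians were between 0.10 and 0.23 for S phase and between 0.13 and 0.27 for mitosis genes, and in the LPS pairs between 0.12 and 0.27 and between -0.03 and 0.26. The median over all genes was between 0 and 0.01 in every pair. The 0 h pair, which had no agent, went with the TNF pairs, the division also seen in the early balance of the 2 classes. A property of how these sets of libraries were made therefore cannot be told apart from the agent here.

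**Figure D5:**
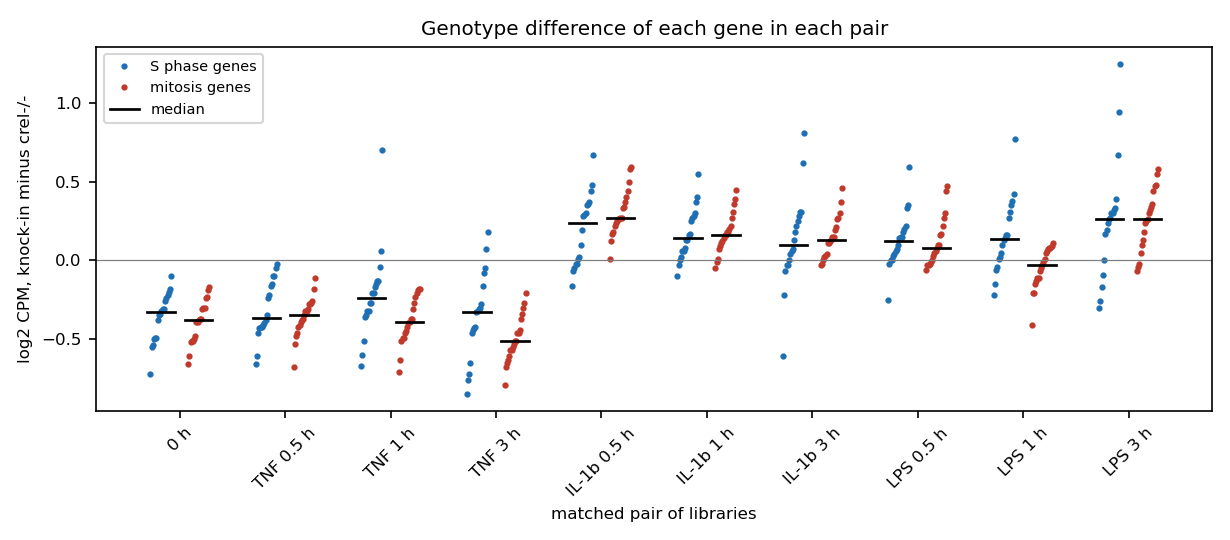
Log2 CPM of the knock-in minus crel-/- for each gene in each of the 10 matched pairs of libraries (points, S phase in blue and mitosis in red, with medians as black bars). At 0 h and under TNF most points lie below 0, and under IL-1b and LPS most lie above 0, apart from mitosis genes at LPS 1 h.

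An interaction fit gave the size of this contrast for each gene. It was added after the opposite signs had been seen in the same libraries, so its calls restate that observation and are no independent evidence of it. Nor can it separate the agent from the set of libraries. The signed difference, knock-in minus crel-/-, was called higher under IL-1b than under TNF for 8 of 37 members, beside 0.378% of all genes tested (53 genes, 26 of them in this direction; edgeR). They were the S phase genes Rrm2 (0.83, SE 0.11), Uhrf1 (0.86, SE 0.12) and Tk1 (1.08, SE 0.19) and the mitosis genes Kif11, the motor that separates spindle poles (0.76, SE 0.12), Top2a (0.66, SE 0.10), Bub1b (0.81, SE 0.13), Ccna2 (0.71, SE 0.12) and Mki67 (0.82, SE 0.14). For Rrm2, the knock-in was higher by 0.37, 0.55 and 0.31 in the IL-1b pairs at 0.5, 1 and 3 h and differed by -0.43, -0.36 and -0.44 in the TNF pairs, so the pairs of the 2 agents did not overlap. For Top2a the values were 0.37, 0.07 and 0.04 under IL-1b and -0.37, -0.51 and -0.61 under TNF, a gap at least as large in size under TNF at each time. In all 8 genes the knock-in was higher in each IL-1b pair and lower in each TNF pair.

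The estimate was above 0 for 17 of 18 S phase and 19 of 19 mitosis genes, with medians of 0.39 and 0.66, and 32 of 37 had an unadjusted p under 0.05, beside 1347 of all 14023 genes. Leaving out any of the 12 libraries in turn lowered the calls from 3 to between 0 and 2 for S phase genes and from 5 to between 0 and 2 for mitosis genes. The same contrast of LPS with TNF called 0 of 37 in edgeR, DESeq2 and limma-voom, with 32, 29 and 32 at an unadjusted p under 0.05 (888 of all 14023 genes in edgeR) and medians of 0.44 and 0.52, beside 0.0214% of all genes. That of LPS with IL-1b called 0 of 37 by all 3 tools (1, 0 and 4 at an unadjusted p under 0.05), beside 0% of all genes. Fibroblast (2 of 11), macrophage (1 of 15) and neural markers (1 of 12) were called lower in the contrast of IL-1b with TNF, beside 0.193% of all genes. The part of these markers in it was not tested.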

How the data were processed

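RNA-seq of 20 libraries was analysed from 1 table of counts per gene that the authors deposited, whole numbers that were not normalized. Per the labels' protocols, libraries were made from polyA RNA with a stranded kit and 12 PCR cycles, and no molecular identifiers are mentioned. Per the submitters' processing notes, cutadapt 1.12, STAR, featureCounts 1.5.1 and DESeq2 were used with mm10. Neither the annotation nor the strand setting was stated (not given in the sources used here), so reads of overlapping antisense genes (Mcm7, Ccne2, Gins2, Ccna2, Kif20a, Cdc20 and Tk1 have an expressed one) may be mixed.

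The computation here kept the 14023 of 45706 genes that reached 1 CPM in 2 or more libraries and used edgeR 4.0.16 in R 4.3.3 (glmQLFit, robust, TMM), with condition and genotype as terms and 9 residual degrees of freedom, Benjamini-Hochberg adjustment and a threshold of 0.05. Interactions had 7 or 6 residual degrees of freedom. A difference that varies between genotypes enters the spread. Standard errors (SE) are the log2 difference divided by the square root of F. Printed CPM are TMM-scaled without a prior count, and relative levels use log2 CPM after adding a prior count of 2. A floor of 3 counts corresponds to 0.2218 to 0.4348 CPM.

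The members and lists were chosen with earlier results of these data known. In each comparison up to 4 members per class with the smallest p, and the ends of the range, are named. Mcm6, Pcna, Cdc6 and Tk1 are given by library, and members of small counts are named, after their values were seen. Alternatives were DESeq2 1.42.0, limma-voom 3.58.1, other scalings and filters, and leaving out libraries. Tests were checked on simulated data.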

Additional observations from a re-analysis of the deposited data

Results flagged for a closer look

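For 8 members the signed genotype difference, knock-in minus crel-/-, was called higher under IL-1b than under TNF by edgeR. In all 8 the knock-in was higher in each of the 3 IL-1b pairs and lower in each of the 3 TNF pairs. The contrast was added after these signs had been seen in the same libraries, so it describes them and gives no independent evidence. All 8 were also lower in the knock-in in the 0 h pair, which had no agent. A property of how the sets of libraries were made cannot be told apart from the agent. On the log2 scale it was 0.83 for Rrm2, 0.86 for Uhrf1, 0.76 for Kif11, 0.66 for Top2a, 0.81 for Bub1b, 0.71 for Ccna2, 0.82 for Mki67 and 1.08 for Tk1. Leaving out any 1 of the 12 libraries lowered the calls from 3 to between 0 and 2 for S phase genes and from 5 to between 0 and 2 for mitosis genes.

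Mcm6 is listed because it rose under LPS and fell under IL-1b at 3 h. The 2 agents differed by 1.43 (SE 0.19, adjusted p = 5.62e-05 by edgeR), with the LPS libraries at 134 and 213 CPM and the IL-1b libraries at 65.4 and 63.8 CPM.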

How the results depend on the processing

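No paired analysis was possible because the labels give no replicate numbers, beyond the pairing of genotypes by condition that the models already hold. No recomputed value of a named member changed sign. Scaling by library totals called 11 mitosis genes for IL-1b 3 h against 0 h (from 5), 10 S phase and 9 mitosis genes for TNF 3 h against 0 h (from 3 each), 9 S phase genes for 1 h against 0 h (from 3), 17 mitosis genes for LPS against TNF at 3 h (from 8), 13 S phase and 15 mitosis genes for LPS against IL-1b (from 7 and 6), and 1 mitosis gene for IL-1b and LPS against TNF at 0.5 h (from 2). Median-ratio size factors also gave 1 in that last comparison. With no filter on low counts, the mitosis genes called were 0 (IL-1b 3 h against 0 h), 1 (TNF 3 h against 0 h), 1 (IL-1b 3 h against 1 h), 5 (LPS against TNF at 3 h), 0 (IL-1b and LPS against TNF at 0.5 h) and 10 (genotype difference under IL-1b against TNF), and the genotype difference under LPS against TNF gained 1 S phase gene. A filter at 5 CPM called 5 mitosis genes for TNF 3 h against 0 h and 5 S phase genes for TNF 3 h against 1 h. limma-voom called 5 S phase genes for TNF 3 h against 1 h and 5 mitosis genes for LPS against TNF, and DESeq2 8 mitosis genes for the genotype difference under IL-1b against TNF. Without both LPS 3 h libraries, the S phase genes called were 6 for TNF 3 h against 0 h, 5 for TNF 3 h against 1 h, 2 for 0.5 h and 6 for 1 h against 0 h, 4 for IL-1b and LPS against TNF at 0.5 h, and 1 for the genotype difference. The cause was not tested.

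Leaving out 1 library at a time, where a condition keeps a lone library assumed to vary like the others, gave these ranges for S phase and then mitosis genes called: LPS 3 h against 0 h, 14 to 17 and 9 to 15; IL-1b, 3 to 15 and 0 to 5; TNF, 1 to 6 and 0 to 6. Against 1 h the ranges were 7 to 14 and 11 to 17 (LPS), 0 to 1 and 0 to 2 (IL-1b), and 1 to 3 and 0 to 2 (TNF). They were 6 to 13 and 1 to 10 for LPS against TNF, 4 to 9 and 2 to 7 for LPS against IL-1b, 0 to 1 and 0 to 1 for IL-1b against TNF, and 0 to 2 and 0 to 1 for IL-1b and LPS against TNF at 0.5 h. For S phase genes, with mitosis genes at 0 throughout, they were 0 to 1 (0.5 h against 0 h), 0 to 3 (1 h against 0 h) and 0 to 1 (genotype difference). The genotype difference under IL-1b against TNF gave 0 to 2 in both classes. Depth limits Cdc6 most, with 8 counts in its lowest library.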
